A study of Mus musculus with 21 samples.

Results

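The insulin-like growth factor (IGF) system was followed in the kidneys of female apoE knockout mice given adenine, with or without iodomethylcholine (IMC). Its 10 genes were taken by name: the ligands Igf1 and Igf2, the receptors Igf1r and Igf2r, and the binding proteins Igfbp2 to Igfbp7. All 10 were found among the 20634 genes counted in every mouse. Igf2 was chosen by its large fall with adenine, so its values against the control mice are a description, with no test. The other 9 are members of the same family.

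All mice were apoE deficient (apoEKO) on the C57BL/6J background, started their diets at 4 weeks of age and were 18 weeks old after 14 weeks of feeding. The Control group (Con, 5 mice) ate chow, the Adenine group (Ade, 6 mice) ate chow with adenine, which injures the kidney, and the Adenine + IMC group (Ade + IMC, 6 mice) ate adenine with iodomethylcholine, an inhibitor of the bacterial enzyme that makes trimethylamine from choline. The study asked whether IMC prevents the kidney disease that adenine causes. Each library is the kidney RNA of 1 mouse, and 4 mice labelled as control with IMC were not analysed here. The lack of apoE is shared by every group, so nothing below separates it from the diets. The knocked-out gene, Apoe, kept 47 to 110 counts in Con, 89 to 214 in Ade and 86 to 171 in Ade + IMC mice, and with no unmodified mice for comparison this does not check the genotype.

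IGF-I and IGF-II are small secreted growth factors that signal through the tyrosine kinase receptor encoded by Igf1r, while the receptor encoded by Igf2r carries IGF-II to the lysosome and clears it. The binding proteins hold the factors outside the cell, lengthening their life and setting how much is free, and several are cut by dedicated proteases. In the kidney the system is known for effects on growth, on glomerular filtration and on tubular cells, and Igf2 is known as an imprinted gene expressed mainly before birth.

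The promoters of 3 genes are shown, those of Igf2, which fell most, and of Igfbp6 and Igfbp2, which rose most among the members. Each is the 250 bases before a RefSeq start in GRCm38.p6, read 5′ to 3′ on the gene's strand. Capitals mark, on either strand, the TATA motif (spelled TATAAA), the GC box (spelled GGGCGG) and the CAAT motif (spelled CCAAT). Igf2 (chr7:142657497-142657746, minus strand) is given at 1 of its 4 RefSeq starts, chosen because the window holds these letters and no annotated exon of the gene, and the counts do not tell which start was in use. Igfbp6 is at chr15:102143936-102144185 and Igfbp2 at chr1:72824230-72824479, both on the plus strand, and Igfbp2 has a second RefSeq start that is not shown.
Igf2: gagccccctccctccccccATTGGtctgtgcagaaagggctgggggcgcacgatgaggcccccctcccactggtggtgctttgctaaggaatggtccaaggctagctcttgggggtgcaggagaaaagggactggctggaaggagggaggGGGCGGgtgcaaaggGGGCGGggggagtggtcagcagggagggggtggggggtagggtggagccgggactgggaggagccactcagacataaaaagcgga
Igfbp6: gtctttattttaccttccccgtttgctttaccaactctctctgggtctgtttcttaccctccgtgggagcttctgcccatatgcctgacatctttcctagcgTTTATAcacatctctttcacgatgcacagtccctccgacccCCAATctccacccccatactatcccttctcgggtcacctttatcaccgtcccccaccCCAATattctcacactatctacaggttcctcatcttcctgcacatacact
Igfbp2: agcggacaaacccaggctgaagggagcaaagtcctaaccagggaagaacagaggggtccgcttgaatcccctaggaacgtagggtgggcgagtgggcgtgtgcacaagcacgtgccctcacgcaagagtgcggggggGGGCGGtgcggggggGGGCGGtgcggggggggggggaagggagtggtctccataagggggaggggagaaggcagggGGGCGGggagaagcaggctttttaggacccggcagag

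The Igf2 window held the GC box at 2 places and the CAAT motif at 1, the Igfbp2 window held the GC box at 3 places, and the Igfbp6 window held the TATA motif at 1 place and the CAAT motif at 2. The 10 genes had 14 such windows, of which 2 held the TATA motif, 6 the GC box and 3 the CAAT motif. Of 32851 windows of the same length over all genes, 12.4% held the TATA motif, 32.7% the GC box and 33.8% the CAAT motif. No 2 matches overlap in the windows shown, and a match describes the sequence only.

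Sequencing gave 7716126 to 11680809 counts per library in Con, 5444833 to 7673215 in Ade and 5728589 to 8305968 in Ade + IMC mice. Levels below are CPM, the counts scaled to a common library size with TMM factors, a normalization that corrects for a few genes taking much of a library. Kidney markers were present in every mouse, but the mixture differed between groups. Proximal tubule markers summed to 12942 to 17755 CPM in Con, 1934 to 7335 in Ade and 3126 to 6725 in Ade + IMC mice, with all 6 lower in both adenine-fed groups. All 9 fibroblast and myofibroblast markers and all 7 macrophage markers were higher, with sums of 425 to 516 CPM in Con, 2821 to 3477 in Ade and 2168 to 3234 in Ade + IMC mice for fibroblasts. In RNA of mixed kidney cells, fewer cells of a type and less RNA per cell cannot be told apart. Adipocyte markers summed to 237, 294, 977 and 197 CPM in mice 207, 211, 212 and 410, and to 40.7 to 85.1 in the 13 others. B cell and plasma cell markers summed to 5.07 to 12.1 CPM in Con and 30.3 to 944 in Ade mice. In Ade + IMC they reached 2689 CPM in mouse 311 and were at 63.1 to 438 in the other mice. Fits without the mice with high adipocyte markers are given where they moved a member's value, and the part of the other differences was not tested.

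Of the ligands, Igf2 had by far the larger change with adenine. Its level in the 5 Con mice was 231, 216, 166, 119.9 and 118 CPM, for mice 201, 202, 301, 302 and 403. In the 6 Ade mice it ran from 4.58 through a median of 6.71 to 10.01 CPM, and in the 6 Ade + IMC mice from 7.37 through 11.2 to 28.9 CPM. No mouse of either adenine-fed group came near the lowest Con mouse. The mean of 170.3 ± 52.6 CPM (SD, n = 5) in Con stood 24.3-fold above the 7.002 ± 2.35 (n = 6) of Ade and 12.002-fold above the 14.2 ± 7.86 (n = 6) of Ade + IMC. The fitted log2 fold changes were -4.59 (SE 0.25) and -3.62 (SE 0.31). The low levels rest on 36 to 74 counts in Ade and 65 to 209 in Ade + IMC mice.

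Igf2 lies at chr7:142650766-142666816 on the minus strand (GRCm38, GENCODE M21). Of its 5723 exonic bases, 3596 are shared on the same strand with Gm49394 and 98 lie opposite Igf2os, so its count can depend on how such reads were assigned, which is not given in the sources used here. H19, the imprinted RNA gene next to Igf2, had 0 to 2 counts in Con, 0 to 2 in Ade and 1 to 3 in Ade + IMC mice, too few for the test.

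Igf1, the other ligand, moved the opposite way and by far less. Its level was 38.6, 41.9, 36.0, 17.02 and 24.7 CPM in the Con mice in the same order, 29.2 to 60.8 with a median of 47.2 in Ade and 37.0 to 63.5 with a median of 49.6 in Ade + IMC mice. The ranges overlapped, with 1 mouse of each adenine-fed group inside the Con range. It rose by 0.58 (SE 0.22) on the log2 scale in Ade (edgeR adjusted p = 0.0333) and by 0.65 (SE 0.21) in Ade + IMC (edgeR adjusted p = 0.0168). Without Con mice 302 and 403, the lowest in Igf1, a choice made after seeing the data, it was 0.28 (SE 0.18) in Ade and no longer called (edgeR adjusted p = 0.205), and 0.35 (SE 0.15) in Ade + IMC (edgeR adjusted p = 0.0836). Within mice whose number starts with 2, 3 or 4, a digit whose meaning is not stated, the difference in mean log2 CPM from Con was -0.11, 0.92 and 1.05 in Ade and 0.21, 0.82 and 1.29 in Ade + IMC, with 1 to 3 mice a side. The direction in Ade thus turned among the mice starting with 2, while every other member called against Con kept its direction within each digit. Among the mice starting with 4, though, the difference in Ade was only -0.13 for Igf2r and -0.12 for Igfbp5.

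Both receptors were lower in the adenine-fed groups. Igf1r, the signalling receptor, was at 140.6, 108, 97.4, 134 and 88.6 CPM in the Con mice, at 36.3 to 60.3 (median 51.1) in Ade and at 27.6 to 57.0 (median 47.8) in Ade + IMC mice. Every adenine-fed mouse was below every Con mouse. It fell by 1.19 (SE 0.14, edgeR adjusted p = 8.4e-06) on the log2 scale in Ade and by 1.36 (SE 0.17, edgeR adjusted p = 2.4e-05) in Ade + IMC.

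Igf2r, the clearing receptor for IGF-II, fell less. It was at 196, 166, 143, 200.4 and 132 CPM in the Con mice, 88.0 to 138 (median 115) in Ade and 90.6 to 132 (median 114) in Ade + IMC mice. Its log2 fold change was -0.51 (SE 0.13, edgeR adjusted p = 0.0033) in Ade, where 1 mouse lay inside the Con range, and -0.61 (SE 0.12, edgeR adjusted p = 0.0010) in Ade + IMC, where none did. With scaling to total counts alone, which moved the median log2 fold change of all genes in Ade from 0.02 to 0.32, the fall in Ade was 0.22 on the log2 scale and was not called (edgeR adjusted p = 0.122). In Ade + IMC the log2 fold change ran from -0.69 to -0.31 over all alternative fits and stayed called.

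**Figure D1:**
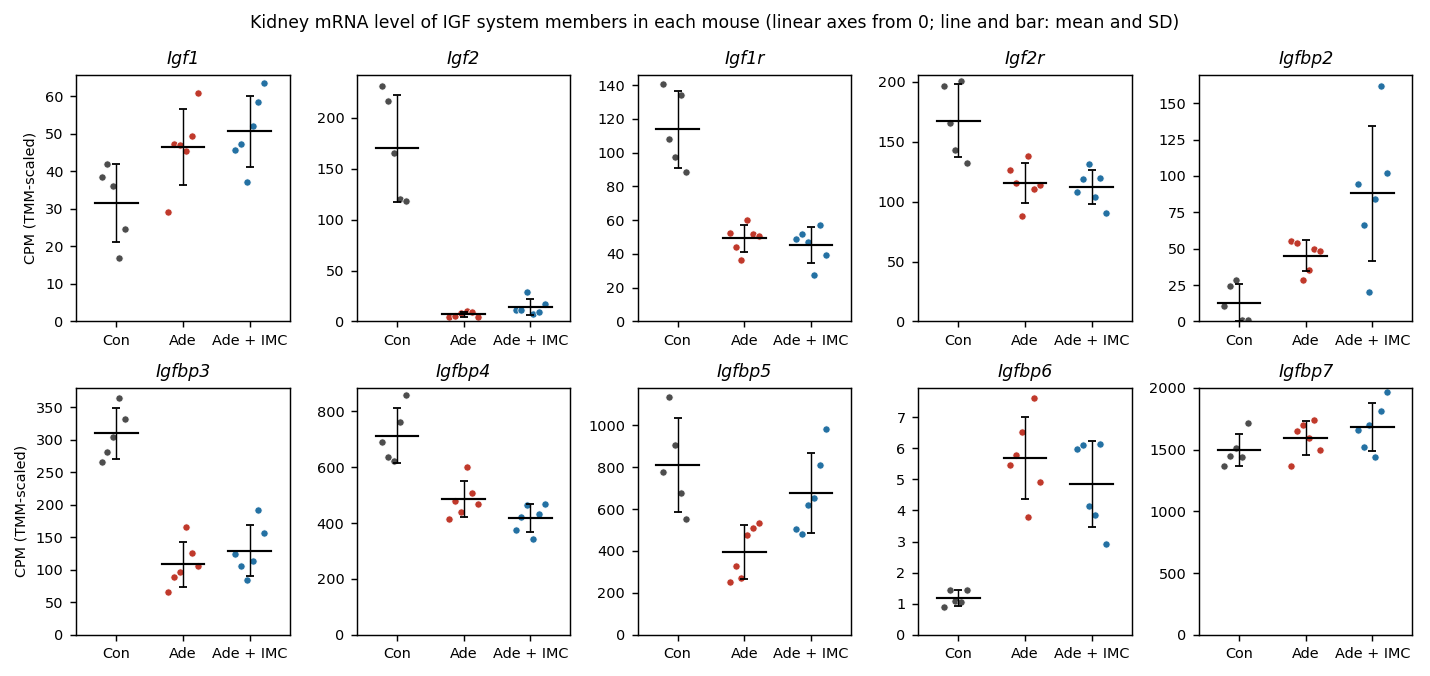
Kidney mRNA level of each of the 10 genes in CPM (y axis, linear, from 0) for each of 5 Con, 6 Ade and 6 Ade + IMC mice, with 1 point per mouse, a line at the mean and a bar of 1 SD. Igf2 falls from 118 to 231 CPM in Con to at most 28.9 in any adenine-fed mouse, Igfbp6 rises from about 1 CPM, and Igfbp7 stays between 1367 and 1971 CPM.

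Among the 6 binding proteins, 2 rose, 3 fell and 1 was not called in Ade against Con mice, where 35.1% of all genes tested were higher and 32.2% lower. Igfbp6, a binding protein that prefers IGF-II, rose from 0.908, 1.44, 1.08, 1.04 and 1.44 CPM in the Con mice to 3.79 to 7.61 (median 5.63) in Ade and 2.93 to 6.16 (median 5.06) in Ade + IMC mice. The groups did not overlap with Con. The rise was 2.29 (SE 0.23, edgeR adjusted p = 2.6e-06) on the log2 scale in Ade and 2.01 (SE 0.26, edgeR adjusted p = 2.9e-05) in Ade + IMC. The gene was scarce, with 8 to 11 counts per Con library and 20 to 61 in the others.

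Igfbp2, a binding protein of both ligands, had the largest spread within Con relative to its mean, with an SD of 99.1% of the mean. Its level was 10.7, 24.3 and 28.4 CPM in Con mice 201, 202 and 301 but 0.909 and 0.784 in mice 302 and 403, where it rested on as few as 6 counts. It was 28.6 to 55.0 (median 49.1) in Ade and 19.9 to 162 (median 89.2) in Ade + IMC mice. The highest Con mouse lay just under the lowest Ade mouse, and mouse 310 of the Ade + IMC group lay inside the Con range. The log2 fold change was 1.84 (SE 0.58, edgeR adjusted p = 0.0146) in Ade and 2.74 (SE 0.70, edgeR adjusted p = 0.0048) in Ade + IMC.

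Within Con, markers of the urothelium, the lining of the renal pelvis, and of the mesothelium and capsule were lowest in the same 2 mice as Igfbp2. The 6 urothelium markers summed to 2.08 and 3.66 CPM in mice 302 and 403 and to 15.3 to 28.6 in the other Con mice, against 14.9 to 167 in Ade and 21.5 to 130.3 in Ade + IMC mice. In Ade against Con mice, 4 of the 6 were higher. The 3 mesothelium and capsule markers summed to 1.43 and 1.31 CPM in mice 302 and 403 and to 4.84 to 16.4 in the other Con mice, with 3.11 to 25.4 in Ade and 3.18 to 24.02 in Ade + IMC mice. In Ade against Con mice, 1 of the 3 was higher. Upk2 and Upk3a, which define urothelium, had no counts in mouse 302. Without mice 302 and 403, the log2 fold change of Igfbp2 was 1.13 (SE 0.30, edgeR adjusted p = 0.0079) in Ade and 2.03 (SE 0.55, edgeR adjusted p = 0.0114) in Ade + IMC, both smaller but still called. The part of these tissues in the Igfbp2 values was not tested further.

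**Figure D2:**
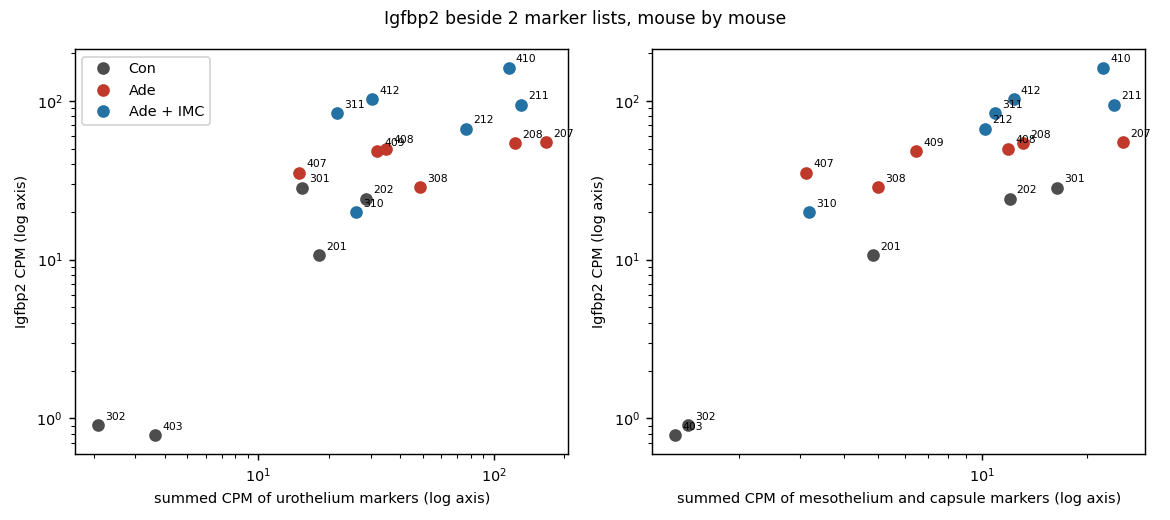
Igfbp2 level (y axis, CPM, log scale) against the summed CPM of urothelium markers (left, x axis, log scale) and of mesothelium and capsule markers (right), with 1 labelled point per mouse, coloured by group. Con mice 302 and 403 are lowest on all 3 measures, at under 1 CPM of Igfbp2, and mouse 410 of the Ade + IMC group has the highest Igfbp2 level at 162 CPM.

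Igfbp3, the main carrier of IGFs in blood, was at 266, 282, 305, 365 and 331 CPM in the Con mice, 65.6 to 166 (median 101) in Ade and 83.5 to 192 (median 119) in Ade + IMC mice. Neither adenine-fed group overlapped with Con. It fell by 1.497 (SE 0.19, edgeR adjusted p = 1.6e-05) on the log2 scale in Ade and by 1.29 (SE 0.18, edgeR adjusted p = 5.1e-05) in Ade + IMC.

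Igfbp4, a binding protein cut by the protease PAPP-A, was at 690.0, 635, 622, 761 and 858 CPM in the Con mice, 415 to 599 (median 473) in Ade and 344 to 470 (median 426) in Ade + IMC mice. These ranges did not overlap with Con either. It fell by 0.54 (SE 0.12, edgeR adjusted p = 0.0016) on the log2 scale in Ade and by 0.80 (SE 0.11, edgeR adjusted p = 5.3e-05) in Ade + IMC. Over all alternative fits the log2 fold change ran from -0.61 to -0.24 in Ade and from -0.85 to -0.51 in Ade + IMC, and it stayed called.

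Igfbp5, which binds the extracellular matrix as well as IGFs, was the member whose call differed between the 2 adenine-fed groups. It was at 778, 1134, 906, 677 and 552 CPM in the Con mice, 249.6 to 534 (median 402) in Ade and 482 to 982 (median 635) in Ade + IMC mice. All Ade mice were below all Con mice, while 4 of the 6 Ade + IMC mice lay inside the Con range. The log2 fold change was -1.02 (SE 0.23, edgeR adjusted p = 0.0019) in Ade and -0.29 (SE 0.21, 95% interval -0.75 to 0.16, edgeR adjusted p = 0.253) in Ade + IMC. Within mice whose number starts with 2, 3 or 4, the difference in mean log2 CPM from Con was -1.72, -1.54 and -0.12 in Ade. In Ade + IMC it was -0.93, -0.30 and 0.69, so the direction turned among the mice starting with 4. Without Con mice 302 and 403 the fall in Ade + IMC was called as well, at -0.52 (SE 0.22, edgeR adjusted p = 0.0782), and without mice 211, 212 and 410, which had high adipocyte markers, it was -0.11 and not called (edgeR adjusted p = 0.744). These comparisons share the Con mice, and the difference between the fed groups is given directly below.

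Igfbp7, a distant relative with weak IGF binding that endothelium makes in quantity, was at 1367 to 1714 CPM in Con, 1369 to 1738 in Ade and 1443 to 1971 in Ade + IMC mice. Of the 6 Ade mice, 5 lay inside the Con range. The log2 fold change was 0.11 (SE 0.11, 95% interval -0.13 to 0.35, edgeR adjusted p = 0.41) in Ade and 0.14 (SE 0.11, edgeR adjusted p = 0.296) in Ade + IMC. With scaling to total counts alone it was called in both, at 0.41 and 0.43. Of 8 endothelium markers, 6 were lower and none higher in Ade than in Con mice, and 2 were lower and 1 higher in Ade + IMC than in Con mice.

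Counted over the 9 members other than Igf2, 3 were higher and 5 lower in Ade than in Con mice, and 3 were higher and 4 lower in Ade + IMC mice. A call was an edgeR adjusted p below 0.1. Over all 14612 genes tested in Ade against Con, 35.1% were called higher and 32.2% lower, and over all 14578 tested in Ade + IMC against Con, 30.9% were higher and 32.3% lower. The split over all genes depends on the scaling: it was 5135 higher and 4706 lower in Ade, against 7990 and 2497 with total counts alone, and 4504 and 4715 in Ade + IMC, against 7531 and 2247. The median log2 fold change of the 9 was -0.51 in Ade and -0.29 in Ade + IMC, against 0.02 and -0.02 over all genes. These counts describe the family in a contrast that its choice had used. Without mice 302 and 403 there were 2 higher and 5 lower in Ade, where Igf1 was lost, and 3 higher and 5 lower in Ade + IMC, where Igfbp5 was added. With mouse 207, which had high adipocyte markers, left out as well there were again 3 higher and 5 lower in Ade, and without mice 211, 212 and 410 there were again 3 higher and 4 lower in Ade + IMC.

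**Figure D3:**
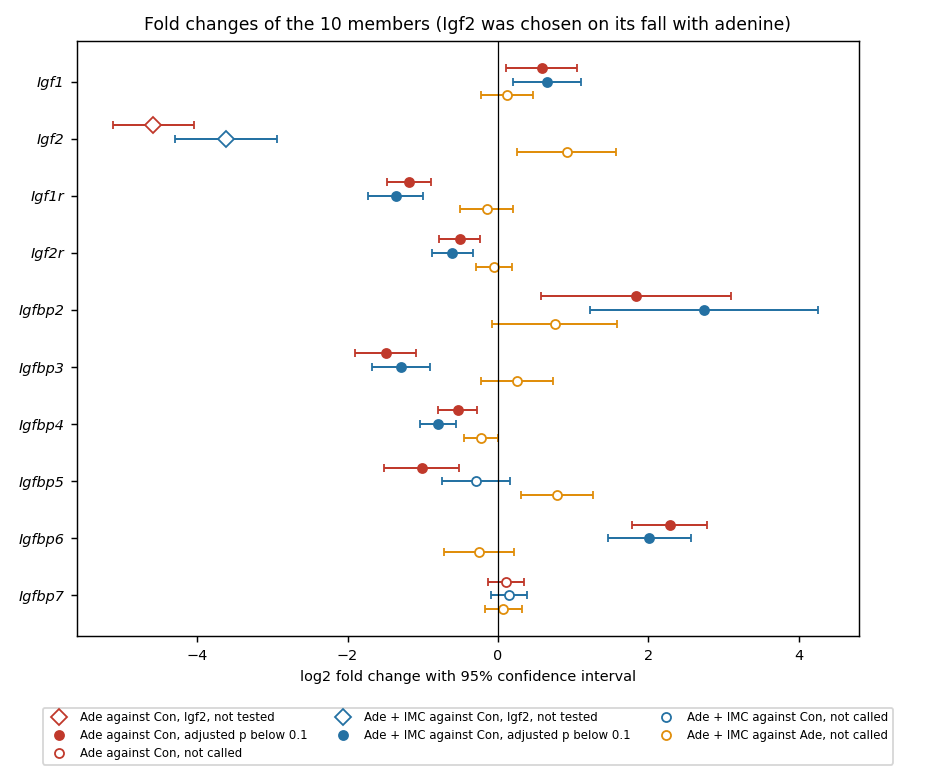
Log2 fold change with its 95% confidence interval (x axis) of each of the 10 genes (y axis) in 3 comparisons. Filled circles passed an adjusted p below 0.1, open circles did not, and open diamonds mark Igf2 against Con, which was not tested because Igf2 was chosen by that fall. The intervals of Igf1r, Igf2r, Igfbp3 and Igfbp4 lie below 0 in both contrasts with Con, and those of Igf1, Igfbp2 and Igfbp6 above it.

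The question of the IMC arm is the direct comparison of Ade + IMC with Ade mice, made on the authors' normalized counts. None of the 10 members was called (limma adjusted p of at least 0.706), and 0% of the 14696 genes tested were called in either direction. At an unadjusted p below 0.05, limma gave 495 genes higher and 493 lower. Of the 9 members other than Igf2, these held Igfbp5, which was higher, and Igfbp4, which was lower. Igf2 was also among the higher ones, but it was chosen for being low in the same Ade mice and is not counted. edgeR on the recovered reads also called 0 genes, and DESeq2 called 21 higher and 16 lower, none of them a member. With DESeq2 at the same threshold, the paper reports far more genes changed in both directions in this comparison. Why the numbers differ was not tested.

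Igfbp5 had the smallest p of the members in this comparison. Its normalized count was 1857 to 3988 (median 3002) in Ade and 3571 to 7182 (median 4735) in Ade + IMC mice, and 2 Ade + IMC mice lay inside the Ade range. The log2 fold change was 0.78 (SE 0.22, 95% interval 0.30 to 1.27, limma adjusted p = 0.706). Within mice whose number starts with 2, 3 or 4, Ade + IMC mice were higher by 0.79, 1.24 and 0.82 in mean log2 CPM. Taking that digit as a block gave 0.89 (SE 0.10, limma adjusted p = 0.0274), and 133 genes were then called. With that block and without mice 207, 211, 212 and 410 the value was 1.07 and was not called (limma adjusted p = 0.454).

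Igf2 was at 34.0 to 74.5 normalized counts (median 50.5) in Ade and at 55.4 to 213.7 (median 83.5) in Ade + IMC mice. The highest Ade + IMC mouse was 310, and 2 of the 6 lay inside the Ade range. Its log2 fold change was 0.91 (SE 0.30, 95% interval 0.26 to 1.56, limma adjusted p = 0.711), and 0.68 without mouse 310. This comparison uses the Ade mice in which Igf2 was chosen for being low, so it is not independent of that choice.

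Igfbp2 was at 215 to 409 normalized counts (median 364) in Ade and 147 to 1182 (median 668) in Ade + IMC mice, where mouse 310 was the lowest and 410 the highest. No Ade + IMC mouse lay inside the Ade range, since 5 were above it and 1 below. On the log2 scale the difference was 0.75 (SE 0.38, limma adjusted p = 0.749), 1.13 without mouse 310 and 0.39 without the mice with high adipocyte markers. Igfbp4 had a difference of -0.23 (SE 0.10, limma adjusted p = 0.732). The 6 other members had log2 fold changes between -0.25 and 0.25, and their intervals all held 0. Without mice 207, 211, 212 and 410, which had high adipocyte markers, Igfbp6 moved from -0.25 to -0.62 (SE 0.26, 95% interval -1.20 to -0.043) and Igf1r from -0.15 to -0.38 (SE 0.20), neither of them called (limma adjusted p = 0.9996 for both), and Igf1 and Igfbp3 came to -0.0133 and -0.0056.

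**Figure D4:**
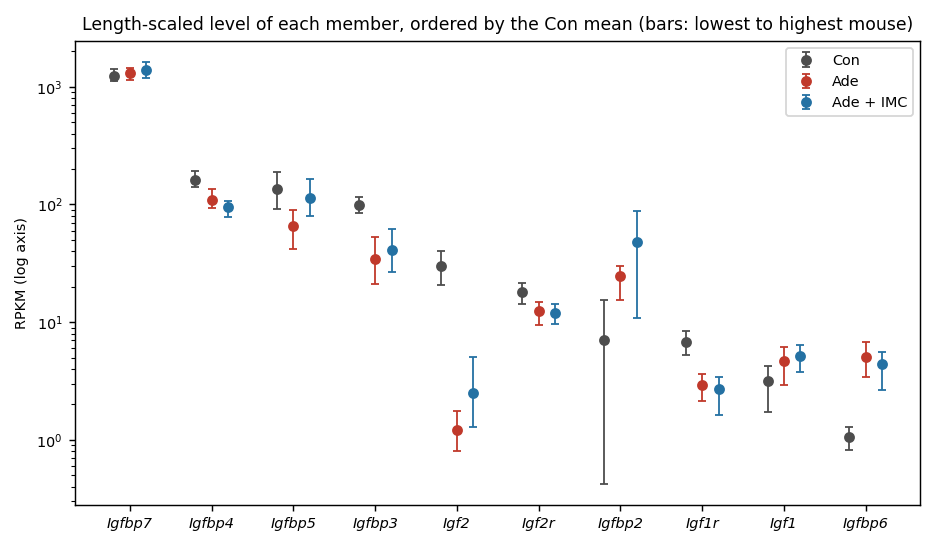
Length-scaled level (RPKM, y axis, log scale) of each gene, ordered by the Con mean on the x axis, with a point at the group mean and a bar from the lowest to the highest mouse. Igf2 is the fifth of the 10 in Con mice at 29.8 RPKM and the last in both adenine-fed groups, and Igfbp7 is first in all groups.

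Levels between genes were compared per length, as reads per kilobase of exon, scaled as the CPM (RPKM). In Con mice the order was Igfbp7 (1238 RPKM), Igfbp4 (162), Igfbp5 (135), Igfbp3 (99.0), Igf2 (29.8), Igf2r (18.0), Igfbp2 (7.05), Igf1r (6.78), Igf1 (3.19) and Igfbp6 (1.06). The ranges over mice overlapped between Igfbp4 and Igfbp5, Igfbp5 and Igfbp3, Igf2 and Igf2r, Igf2r and Igfbp2, and Igfbp2 and Igf1r. In Con mice Igf2 was thus above Igf1 in every animal. In Ade mice Igf2 was last at 1.22 RPKM, below Igf1r at 2.93 with no overlap, and Igf1 at 4.70 was above it. In Ade + IMC mice Igf2 was last again at 2.48 RPKM, but its range overlapped with that of Igf1r at 2.70. Igfbp2 was the fifth in Ade at 24.5 RPKM and the fourth in Ade + IMC mice at 47.7 RPKM, overlapping with Igfbp3 in both.

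Both Igfbp2 with Igfbp5 and Igfbp1 with Igfbp3 are neighbours in the genome, facing each other tail to tail. Igfbp2 (chr1:72824503-72852474, plus strand) and Igfbp5 (chr1:72857932-72874884, minus strand) are separated by 5457 bases, and in Ade mice the first rose and the second fell. Igfbp1 (chr11:7197782-7202546, plus strand) and Igfbp3 (chr11:7206086-7213923, minus strand) are separated by 3539 bases, and both fell. Igfbp1, known from liver as a binding protein set by insulin, is no member of the 10. It had a mean of 30.7 ± 5.41 CPM (SD, n = 5) in Con, 6.36 ± 3.90 (n = 6) in Ade and 9.42 ± 2.89 (n = 6) in Ade + IMC mice, a log2 fold change of -2.25 (SE 0.30, edgeR adjusted p = 3.2e-05) in Ade.

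The other genes of the pathway were read from lists of 36 genes, of which 35 were measured and 34 tested. In Ade against Con mice, 9 were higher, 19 lower and 6 were not called, with a median log2 fold change of -0.32. In Ade + IMC against Con mice, 7 were higher and 16 lower, with a median of -0.17, where 30.9% and 32.3% of all genes were. In Ade + IMC against Ade mice none was called (0% of all genes). The first contrast is the one with 35.1% higher and 32.2% lower over all genes.

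All 4 measured genes of the other binding proteins and receptors fell in both contrasts with Con, in which 32.2% (Ade) and 32.3% (Ade + IMC) of all genes were lower. Besides Igfbp1, Igfals, which encodes the acid-labile subunit that joins IGFBP-3 and IGF in blood, fell by 1.34 on the log2 scale in Ade. The insulin receptor gene Insr fell by 0.85 and its relative Insrr by 1.28. In Ade + IMC the falls were 1.73 for Igfbp1, 1.01 for Igfals, 0.93 for Insr and 1.09 for Insrr.

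The 6 proteases of IGFBPs and their inhibitors split evenly in Ade, with 3 higher and 3 lower, against 35.1% and 32.2% over all genes. Adam12, a metalloprotease that cuts IGFBP-3 and IGFBP-5, rose from 2.48 to 5.82 CPM in Con to 18.5 to 26.9 in Ade and 18.5 to 24.9 in Ade + IMC mice. Its log2 fold change was 2.69 (SE 0.19, edgeR adjusted p = 1.2e-07) in Ade and 2.45 (SE 0.20, edgeR adjusted p = 8.5e-07) in Ade + IMC. Pappa2, a protease of IGFBP-5, rose by 1.68 in Ade and 2.01 in Ade + IMC, and Stc2, an inhibitor of the PAPP-A proteases, rose by 1.46 and 1.51. Pappa fell by 0.41 and Stc1 by 0.47 in Ade. Htra1, a serine protease of IGFBPs, fell by 0.33 in Ade and 0.48 in Ade + IMC.

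On the growth hormone axis, which drives Igf1 in liver, 1 of 6 genes rose and 2 fell in Ade, no more than the 35.1% and about the 32.2% of all genes. Ghr, the growth hormone receptor, was at 934 to 1357 CPM in Con, 141 to 499 in Ade and 248 to 598 in Ade + IMC mice, without overlap with Con. Its log2 fold change was -1.99 (SE 0.27, edgeR adjusted p = 2.9e-05) in Ade and -1.41 (SE 0.22, edgeR adjusted p = 0.00015) in Ade + IMC. Between the fed groups it was 0.66 (SE 0.29, limma adjusted p = 0.725). Stat5a, a transcription factor of this pathway, rose by 0.47 in Ade, and Cish, a feedback inhibitor, fell by 0.34. Jak2, Stat5b and Socs2 were not called, with log2 fold changes between -0.07 and -0.03.

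Of 16 adaptors and kinases downstream of the receptors, 4 were higher and 10 lower in Ade, and 3 were higher and 9 lower in Ade + IMC. The shares over all genes were 35.1% and 32.2% in Ade and 30.9% and 32.3% in Ade + IMC. Mtor, the kinase at the centre of growth control, fell by 1.21 in Ade and 0.99 in Ade + IMC. The receptor substrates Irs1 and Irs2 fell by 0.98 and 0.87 in Ade. Akt1, a kinase activated through them, rose by 0.54 and Pik3r1, the regulatory subunit of PI3-kinase, by 0.49. Akt1 rose by 0.47 in Ade + IMC, without overlap with Con. With scaling to total counts alone, 11 of the pathway genes were lower in Ade rather than 19. Of all 14612 genes tested, that scaling called 7990 higher and 2497 lower, so the 32.2% is not the background of the 11. Igf2bp2, which binds Igf2 mRNA, rose by 0.40 in Ade, where 5 mice lay inside the Con range. It was not called in Ade + IMC against Con, at -0.03. Igf2bp1 was not called in Ade, at -0.21.

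**Figure D5:**
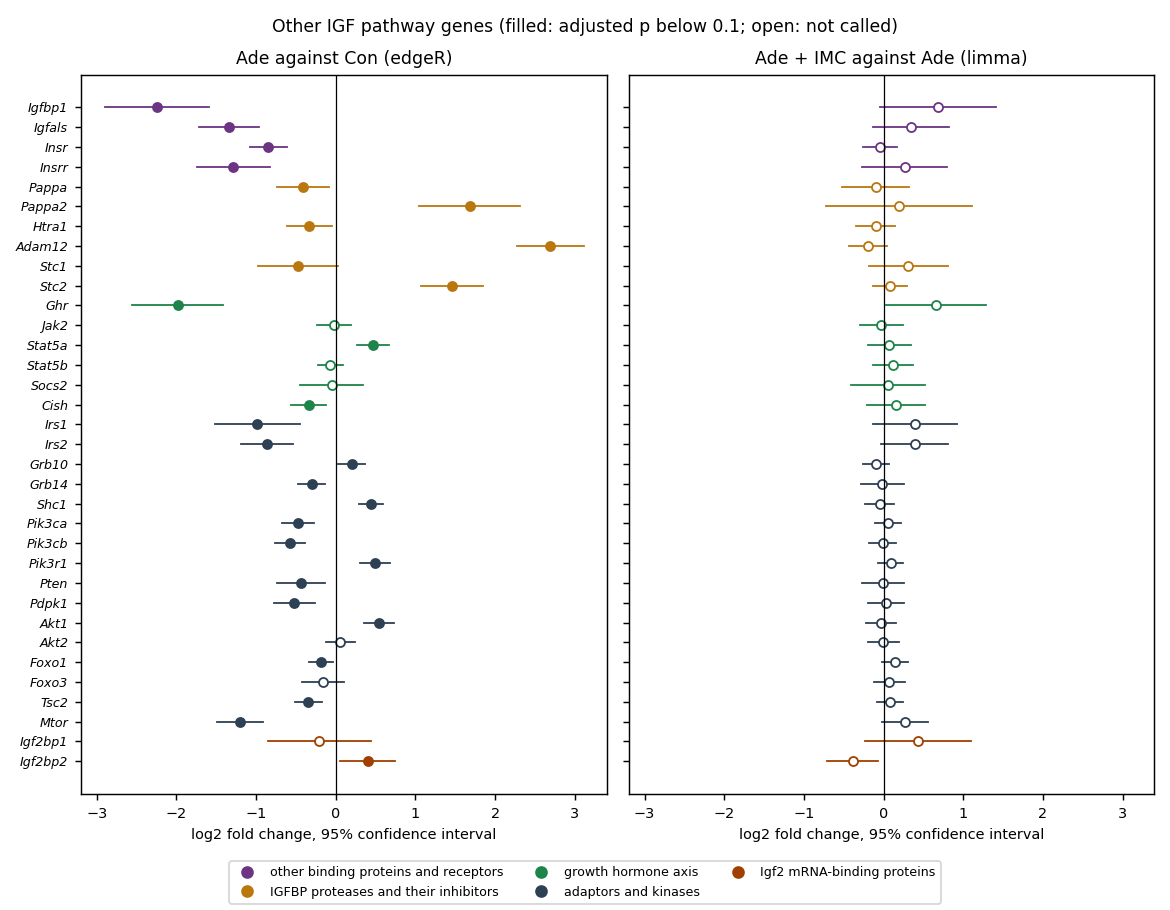
Log2 fold change with its 95% confidence interval (x axis) for the 34 other IGF pathway genes tested (y axis), in Ade against Con on the left and Ade + IMC against Ade on the right, coloured by list. Filled points passed an adjusted p below 0.1. Adam12 has the largest rise at 2.69 and Igfbp1 the largest fall at -2.25 on the left, and no point on the right is filled.

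Imprinted genes of growth, a class that includes Igf2, were counted apart. Of 17 names 16 were measured and 14 tested, with 4 higher, 3 lower and 7 not called in both contrasts with Con. Over all genes 35.1% were higher and 32.2% lower in Ade, and 30.9% and 32.3% in Ade + IMC, so the list did not hold more calls than its background. Ndn rose by 1.54 and Meg3 by 1.02 in Ade, while Peg3 fell by 0.85 and Phlda2 by 0.79. Ndn, a growth suppressor of the MAGE family, went from 1.18 to 2.21 CPM in Con to 3.52 to 5.68 in Ade mice. None was called between the fed groups.

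Genes whose profile over the 17 mice was most like that of Igf2 were ranked by the root mean square difference of centred log2 CPM over 20634 genes. They were Aqp4 (0.62), Dnase1 (0.69), Bhmt (0.72), Nepn (0.79) and Myh1 (0.81). The profile of Igf2 holds the fall by which it was chosen, so the ranking favours genes with a large fall and is a description only. These distances are larger than those given for other members below. Aqp4, a water channel, averaged 199 CPM in Con, 12.1 in Ade and 29.1 in Ade + IMC mice. Dnase1, a secreted nuclease, averaged 296, 29.0 and 53.0 CPM, and Bhmt, an enzyme that uses betaine to remethylate homocysteine, 16.4, 0.783 and 1.34. Nepn averaged 16.4, 1.82 and 3.002 CPM. Myh1, a myosin of skeletal muscle, averaged 7.08, 0.515 and 0.567, while the 3 measured markers of skeletal muscle summed to at most 3.63 CPM in any mouse.

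The 3 nearest to Igfbp6 were Oasl2 (0.19), Irf7 (0.20) and Oasl1 (0.22), genes known from the interferon response. Oasl2 averaged 31.3, 126 and 111 CPM in Con, Ade and Ade + IMC mice, and Irf7 30.3, 123 and 110.0. The 3 nearest to Igf1 were Lmo2, Ap3m2 and Sned1, each at 0.24. The 3 nearest to Igfbp3 were Gcat, Prodh and Tmem64, each at 0.25. Prodh, which breaks down proline, averaged 204 CPM in Con, 81.4 in Ade and 95.2 in Ade + IMC mice. None of these 14 genes is a member.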

How the data were processed

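Kidney RNA of 17 apoE KO mice was measured by RNA-seq with 50 bp single-end reads. The authors deposited raw counts per gene for Con and Ade, while the 12 adenine-fed mice have a signal, the count divided by DESeq2's size factor. The methods name STAR 2.3.1 and mm10, while the submitters' processing notes name Bowtie2 2.2.5 and HTSeq 0.9.1, so the aligner is uncertain. Neither the gene annotation nor the strand setting is given in the sources used here. Columns with the authors' own comparison hold fold changes and p-values and were not used, except for the gene names, which 20981 genes carry.

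Divided by the smallest value above 0 in its library, taken as 1 read, every deposited normalized value (100%) gave a whole number of reads within 1e-06, and in 0 cases did these reads differ from the raw counts of the Ade mice. Ade (raw counts) and Ade + IMC (recovered reads) were each compared with Con by edgeR 4.0.16 (quasi-likelihood test, TMM, its filter on low counts), and Ade + IMC with Ade by limma-trend (3.58.1) after log2(normalized count + 1), for genes averaging at least 10, in R 4.3.3. That fold change understates low genes. P-values were adjusted over all genes tested and called below 0.1. Both contrasts with Con share the Con mice. The fits were tested on simulated data, where the share of false calls was above the threshold for edgeR in Ade + IMC against Con, for limma and for DESeq2. Replicates are separate mice, and libraries of 1 group differed by more than counting noise (smallest chi-square over its degrees of freedom 4.21). RPKM used exon lengths of GENCODE M21, and promoters came from RefSeq, which matched all 10 genes.

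The members, lists, markers and tests were chosen with earlier results of these data known. Named list genes were the 2 largest called rises and falls of each list in Ade against Con. Others were named beside them after their values were seen. The same choice was planned for Ade + IMC against Con, but only some of those genes are named. Profiles were the nearest 5 to Igf2 and 3 to Igf1, Igfbp3 and Igfbp6. Alternatives were DESeq2 1.42.0, other scalings, filters and pseudocounts, 1 fit of all mice, a block on the leading digit of the mouse number, and leaving out mice.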

Additional observations from a re-analysis of the deposited data

How the results depend on the processing

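Of 847 recomputed values for the members, their counts and the pathway counts, 826 were taken as unchanged. A member had to keep its direction and its side of the threshold, and a count had to stay within 1.5 times of its value. Igf2 against Con, which had no threshold, had to keep its direction and move by less than the pooled SD of log2 CPM between mice. Scaling to total counts alone, chosen after seeing the data, lowered the other pathway genes called lower from 19 to 11 in Ade against Con. In Ade + IMC against Con it gave 11 higher and 10 lower in place of 7 and 16. Over all genes, that scaling called 7990 of 14612 higher and 2497 lower in Ade, and 7531 of 14578 higher and 2247 lower in Ade + IMC. It moved the median of all genes to 0.32 and 0.27, so values near 0 shift with it. It removed the call of Igf2r in Ade and added that of Igfbp7 in both contrasts. Leaving out Con mice 302 and 403 removed the call of Igf1 in Ade and added that of Igfbp5 (-0.52) in Ade + IMC against Con.

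In Ade + IMC against Ade, genes called went from 0 to 37 with DESeq2 on recovered reads, 133 with a block on the leading digit of the mouse number, 104 with that block in edgeR on recovered reads, and 1 without mice 207, 211, 212 and 410. With the block, 1 member, Igfbp5, was called in limma and in edgeR (0.89 and 0.87), while the cause was not tested. The digit is no replicate number, and no mice are paired by the labels. Leaving out 1 mouse at a time gave 0 called genes each time. Signs near 0 turned for Igf1, at -0.0060 without Ade replicate 1 and -0.0133 without the 4 mice, for Igf2r, at 0.0024 without Ade replicate 4 and 0.0120 without Ade + IMC replicate 6, and for Igfbp3, at -0.0056 without the 4 mice. Leaving out 1 mouse gave a log2 fold change of -0.0060 to 0.21 for Igf1 and -0.12 to 0.0120 for Igf2r. Over all alternatives the limma, edgeR or DESeq2 adjusted p of Igfbp5 ran from 0.0274 to 0.9996.

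Depth limits Igfbp6 and Igfbp2 most, with as few as 8 and 6 counts in a Con library. Counting error is only part of the spread between mice.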
